A study of Drosophila melanogaster with 2 samples.

Results

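Trl (FBgn0013263) encodes GAGA factor, and here its locus was examined for binding of Su(var)2-10, the PIAS-family SUMO ligase of Drosophila melanogaster. Trl was 1 of 13945 protein-coding genes. It was chosen by the signal of a peak in one of its introns, which stood among the strongest of the series, and all summits in the gene body and in 5 kb on either side were then taken. Its peak heights and ranks are therefore a description, given without a test. The window held 7 of the 2942 reproducible peaks and 12 of the 30000 candidate peaks of the pooled replicates. Reproducible peaks are those in the list that the authors thresholded on the irreproducible discovery rate (IDR). That list holds the pooled peaks of highest signal, so a place in it does not mean a match in each replicate.

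The material was whole embryos of mixed sex, 0 to 24 h old, from a transgenic line that stably expresses Su(var)2-10 with GFP fused to its C terminus. Chromatin was sonicated to 200 to 800 bp and precipitated with an antibody to GFP in 2 biological replicates, labelled 2 and 3, which form 1 group with no second condition. The labels tie both replicates to the same line, and whether it also carries untagged protein is not stated there. The embryos mix all tissues and stages, so the number of cells with binding and the binding per cell cannot be told apart. Signal values have no unit and their scale differs between lists, so they were compared only within a list, and the depth behind them is unknown.

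GAGA factor, also called Trithorax-like, binds GA-rich DNA with a single zinc finger and joins other proteins through its BTB domain. It is known for keeping promoters open for heat-shock, actin and homeotic genes, and for helping polymerase to load and pause there. PIAS proteins such as Su(var)2-10 direct the attachment of SUMO, a small protein modifier, to other proteins, and Su(var)2-10 itself was found through its effect on position-effect variegation.

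On dm6 the gene spans 3L 14747929 to 14761049 on the minus strand, 13121 bp, and Ensembl gives it 10 transcripts with 4 start sites. The position 14757962 starts 7 of them (Trl-RB, RC, RD, RE, RH, RI and RK). Trl-RA starts at 14757779, Trl-RJ at 14757336 and Trl-RF, furthest upstream, at 14761049. All 10 share the first coding base, at 14757095, and their coding sequences are 1560 to 1872 bp long. RefSeq gives the same 4 start sites. The gene CG42507 lies on the same strand inside Trl and begins at the 7-transcript start, and Tsen34, a tRNA splicing endonuclease subunit gene, overlaps the first exons of Trl-RF. Mgat4a, a glycosyltransferase gene, begins upstream on the other strand, and ome, a peptidase gene, ends beyond the 3' end.

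The sequence around the summits is shown next, since the letters that GAGA factor reads can be looked for directly at its own gene. Each run is the plus strand of the RefSeq Release 6 assembly, which is dm6, so it reads opposite to the direction of Trl transcription. The first is the strongest peak, in the long intron of Trl-RF, at chr3L:14759318-14759617. Its capitals mark the nearest GAGAG and 11 bases centred on the summit at 14759517.
Trl peak 4: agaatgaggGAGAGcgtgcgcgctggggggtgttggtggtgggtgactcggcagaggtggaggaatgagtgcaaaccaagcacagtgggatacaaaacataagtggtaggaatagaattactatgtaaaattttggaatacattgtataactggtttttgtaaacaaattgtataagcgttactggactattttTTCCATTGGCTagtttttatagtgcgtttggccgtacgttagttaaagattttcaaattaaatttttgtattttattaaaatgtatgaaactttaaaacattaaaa
The second is the longest GA repeat of the locus with 40 bases on either side, at chr3L:14757339-14757437, which lies inside the peak at the Trl-RJ start. Its capitals mark GAGAG, which reads CTCTC here.
Trl GA repeat: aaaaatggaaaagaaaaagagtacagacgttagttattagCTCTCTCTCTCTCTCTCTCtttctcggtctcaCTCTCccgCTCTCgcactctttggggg
The next 3 are the reproducible summits at Trl whose windows held AGATAA, the motif read by GATA factors, shown because no other motif searched was found at as many Trl summits. They lie at chr3L:14755965-14756165, chr3L:14756165-14756365 and chr3L:14762418-14762618, with AGATAA in capitals, or TTATCT where it is on the minus strand.
Trl peak 1: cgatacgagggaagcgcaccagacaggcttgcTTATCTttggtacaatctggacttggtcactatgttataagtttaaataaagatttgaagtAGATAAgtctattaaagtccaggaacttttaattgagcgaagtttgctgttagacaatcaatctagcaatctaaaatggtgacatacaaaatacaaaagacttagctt
Trl peak 2: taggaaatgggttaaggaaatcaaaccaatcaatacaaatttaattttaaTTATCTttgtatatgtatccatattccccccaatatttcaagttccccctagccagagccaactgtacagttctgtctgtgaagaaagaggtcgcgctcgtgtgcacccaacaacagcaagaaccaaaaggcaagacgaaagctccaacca
Trl peak 7: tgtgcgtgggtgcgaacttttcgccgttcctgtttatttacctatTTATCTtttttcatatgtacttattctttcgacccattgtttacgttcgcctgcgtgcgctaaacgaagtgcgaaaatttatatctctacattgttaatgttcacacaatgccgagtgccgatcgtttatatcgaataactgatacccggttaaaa
The last pair comes from strong intronic peaks of other genes, ush at chr2L:481005-481205 and Kdm2 at chr3R:9057432-9057632, and lets the base composition of the Trl summit be read beside theirs. Capitals mark 11 bases at the summit.
ush intronic peak: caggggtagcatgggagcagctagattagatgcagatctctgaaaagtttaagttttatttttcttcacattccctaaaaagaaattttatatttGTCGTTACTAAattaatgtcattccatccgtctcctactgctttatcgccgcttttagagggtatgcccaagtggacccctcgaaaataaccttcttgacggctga
Kdm2 intronic peak: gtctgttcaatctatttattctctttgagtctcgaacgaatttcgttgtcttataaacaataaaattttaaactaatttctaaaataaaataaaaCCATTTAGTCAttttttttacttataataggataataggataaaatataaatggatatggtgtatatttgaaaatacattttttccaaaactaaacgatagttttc

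The strongest peak at Trl lay in an intron that only Trl-RF has. Its interval was 3L 14759290 to 14759748, and its summit, at 14759517, was 1532 bp downstream of the Trl-RF start and 1555 bp upstream of the start used by 7 transcripts. It was thus outside the other 9 transcripts, in intron 2 of Trl-RF (14757331 to 14760563, 3233 bp), 1047 bp from the 5' end of that intron and 2187 bp from its 3' end. The pooled signal was 1598, the third of 30000 peaks. In replicate 2 the signal was 907, also the third, with the summit at the same base, and in replicate 3 it was 661, the fifth, with the summit 2 bp away. Both replicates put it well above every other peak of the locus. It was 4.98-fold the next strongest peak in the pooled list, 4.82-fold in replicate 2 and 4.73-fold in replicate 3, each time the peak in the intron shared by all transcripts.

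The deposited q-value of that peak, 0.000399 in the pooled list, does not order it further, because 1254 pooled peaks share the highest −log10 q of 3.40. The interval was 459 bp wide, where 536 bp is the width of 89.9% of reproducible peaks. Narrower intervals made up 10% of the reproducible peaks (295), but 92 of the 100 with the highest signal, so the width goes with rank. Both replicate lists held a second, weaker summit in the same interval. In replicate 2 it lay at 14759719 with a signal of 72.9 (q = 0.0498), and in replicate 3 at 14759716 with a signal of 44.5 (q = 0.123). These lay 202 and 201 bp from the main summit on the side of the Trl-RF start, and the pooled list gave 1 summit for the interval.

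**Figure D1:**
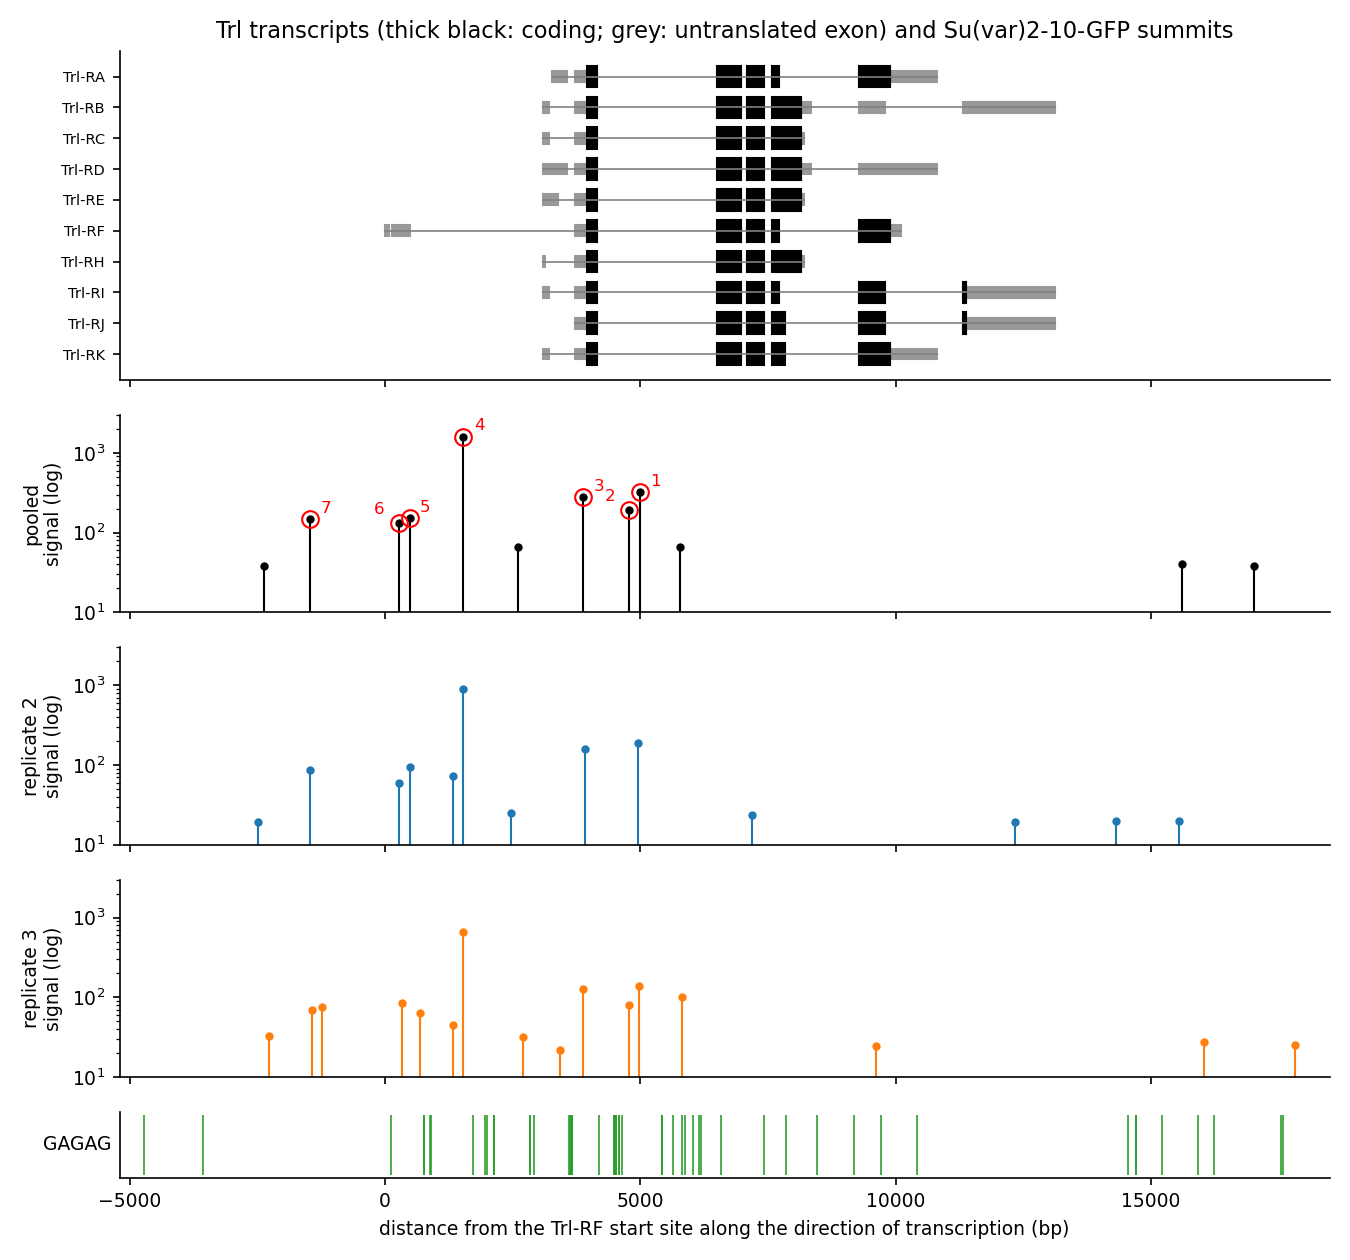
The 10 Trl transcripts and the summits of the pooled and replicate lists, by distance in bp from the Trl-RF start along the direction of transcription, with signal on log axes whose lines only mark positions, and GAGAG matches below. Red rings and numbers mark the 7 reproducible peaks, and peak 4 (pooled signal 1598) stands above the others, in the intron of Trl-RF, with no GAGAG at its summit.

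The second of the peaks for which Trl was chosen lay at the start site of Trl-RJ, in the untranslated leader. Peak 3 had its interval at 3L 14756908 to 14757443 and its summit at 14757176, 160 bp downstream of the Trl-RJ start and 81 bp upstream of the first coding base. That base is in the 5' UTR of all 10 transcripts, and it was 603 bp from the Trl-RA start and 786 bp from the 7-transcript start. The pooled signal was 281 (rank 717). It was 157 in replicate 2 (rank 594, summit 51 bp away) and 128 in replicate 3 (rank 924, same base). The lists thus place it in the stronger part of the reproducible set, within 51 bp of each other.

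The start used by 7 of the 10 transcripts had no reproducible summit within 500 bp. The nearest pooled summit was at 14758450, 488 bp upstream, with a signal of 65.3 that did not pass the threshold. Replicate 2 had 25.3 at 14758576, 614 bp upstream, and replicate 3 had 31.8 at 14758347, 385 bp upstream, and 21.7 at 14757626, 336 bp downstream. Signals at this start were far below that of peak 3 in each list, with no position shared within 100 bp by both replicates.

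Peaks 1 and 2 lay in the intron that follows the first coding exon, 14754551 to 14756903 (2353 bp), which all 10 transcripts share and which also belongs to CG42507. Peak 1 (3L 14755797 to 14756332, summit 14756065) had a pooled signal of 321 (rank 550), with 188 in replicate 2 (rank 402) and 140 in replicate 3 (rank 771). Its replicate summits were 40 and 9 bp away. Peak 2 (3L 14755997 to 14756532, summit 14756265), 200 bp from it, had a pooled signal of 194 (rank 1479). Replicate 3 had a summit of its own for peak 2, 14 bp away with a signal of 80.0, whereas the nearest replicate 2 summit was that of peak 1, 160 bp away. The intervals of both overlap, so they form 1 region of 736 bp.

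Peaks 5 and 6 lay 211 bp apart at the beginning of Trl-RF, 479 and 268 bp downstream of its start. Both are in its untranslated leader, with peak 5 only 6 bp inside the exon, and both lie over Tsen34, in its 3' UTR and its coding sequence. Peak 5 (3L 14760302 to 14760837, summit 14760570) had a pooled signal of 153 (rank 2191, q = 0.00890), and peak 6 (3L 14760513 to 14761048, summit 14760781) had 134 (rank 2755, q = 0.0191). In replicate 2 they were separate, with 94.7 (q = 0.0105) at a distance of 11 bp and 59.0 (q = 0.129) at the same base. In replicate 3 the summit at 14760712, with a signal of 85.7, was the nearest to both, 142 bp from peak 5 and 69 bp from peak 6. Replicate 3 also listed a summit at 14760374, in an interval that overlaps that of peak 5, with a signal of 64.2 (q = 0.0225). Both replicates thus listed a pair of summits here, at positions that differ, and the intervals of peaks 5 and 6 form 1 region of 747 bp. Together with peak 3 they make up the 3 of 7 reproducible summits that lay within 500 bp of a Trl start.

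Peak 7 (3L 14762250 to 14762785, summit 14762518) was the only reproducible peak outside the gene body. It lay 1469 bp upstream of the Trl-RF start and 490 bp from the start of Mgat4a, in an intron of that gene. Its pooled signal was 148 (rank 2334, q = 0.00964). Replicate 2 had 86.7 at the same base, and replicate 3 had 68.7 at a distance of 31 bp. Replicate 3 listed a stronger summit in an overlapping interval, at 14762275, 243 bp from peak 7, with a signal of 75.1 (rank 2716, q = 0.00681). Within the window, no reproducible summit lay downstream of peak 1 in the direction of Trl transcription, which takes in the part of ome that the window covers.

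**Figure D2:**
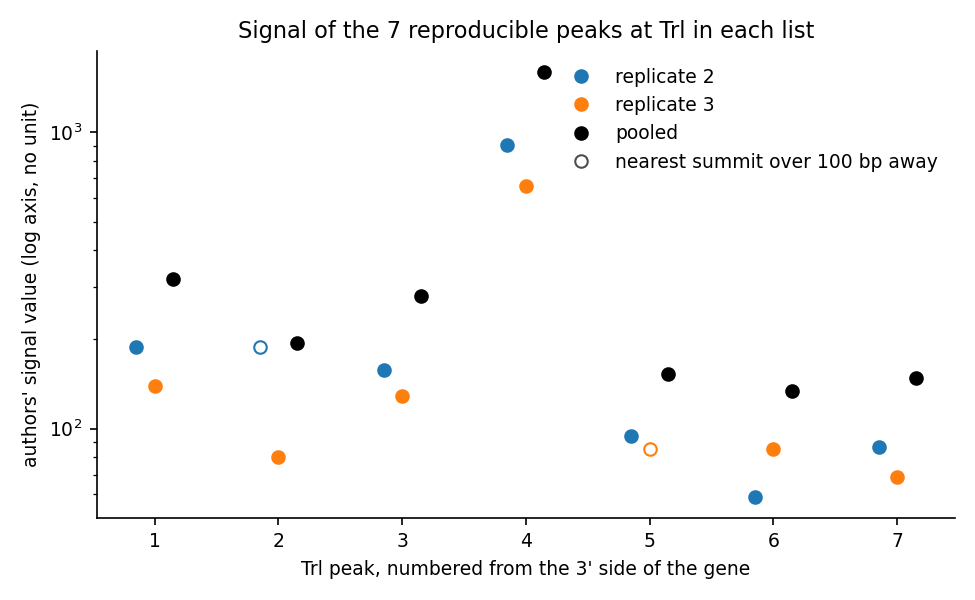
Signal of the 7 reproducible peaks at Trl in the replicate and pooled lists, on a log axis with no unit, with open points where the nearest summit was over 100 bp away. Peak 4 is the highest in all 3 lists (907 in replicate 2, 661 in replicate 3 and 1598 pooled), while peaks 5 to 7 lie near the bottom. In replicate 3 peaks 5 and 6 take their value from the same summit (85.7), and peak 2 lies below it (80.0).

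Of the 7 reproducible summits at Trl, 5 had a summit within 100 bp in both replicate lists, against 88.9% of all reproducible summits. Peak 2 had none in replicate 2 and peak 5 none in replicate 3, and within 200 bp, or by 50% overlap of intervals, all 7 were matched. Peaks 1, 3 and 4 were each matched in both and among the best 2942 of both, 3 of the 7, against 60.5% over the whole set. For peak 6 the replicate 2 summit ranked 3335 (q = 0.129), and for peak 7 the replicate 3 summit ranked 3176 (q = 0.0121), both beyond 2942. The overlapping replicate 3 summit near peak 7, at rank 2716, was within it.

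The other 5 pooled summits in the window had signals of 37.7 to 66.4 and did not pass. Over the whole list the lowest reproducible signal was 128.859 and the highest signal that did not pass was 128.832. The reproducible set is thus a cut on pooled signal. At Trl the values on either side of it were 134 and 66.4. One summit stood out in replicate 3 alone, at 14755236 in the intron of peaks 1 and 2. There replicate 3 had a signal of 99.7 (rank 1568, q = 0.000301), while the pooled list had 66.4 nearby at 14755276 (rank 9099) and the nearest replicate 2 summit was that of peak 1. In all, replicate 2 listed 13 summits in the window and replicate 3 listed 16, of which 6 and 7 were among the best 2942 of their lists.

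**Figure D3:**
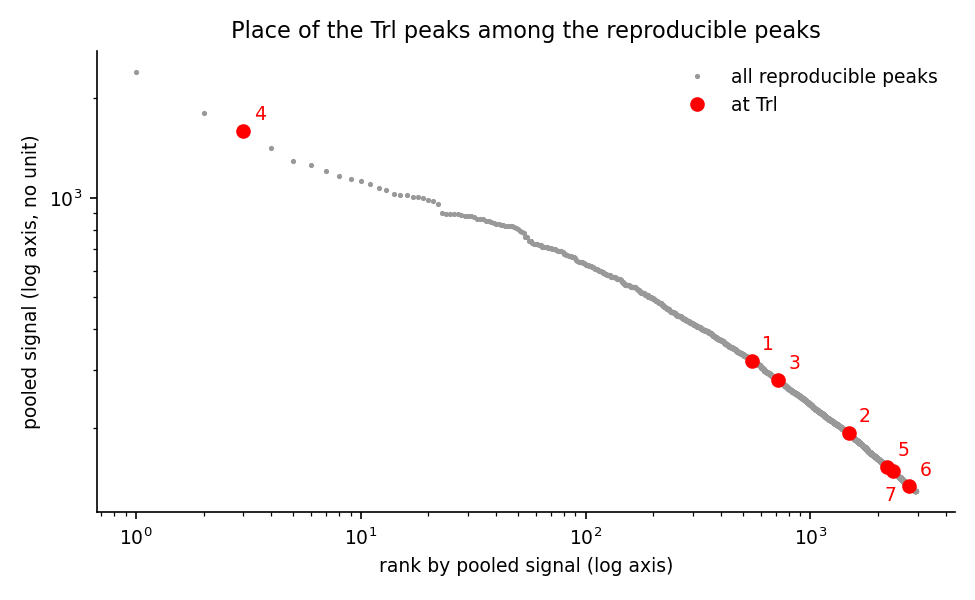
Pooled signal against rank for the 2942 reproducible peaks, both on log axes, with the 7 Trl peaks in red. Peak 4 is the third from the top, peaks 1 and 3 are at ranks 550 and 717, and peaks 5, 6 and 7 are beyond rank 2000, near the threshold.

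Few genes held as many reproducible summits as Trl. Its 7 in the body and 5 kb around it were matched or exceeded by 28 of 13945 protein-coding genes, Trl included, or 0.201%, and longer genes have more room for summits. Per kb, Trl had 0.303, and 78 genes (0.559%) had at least that many. Among candidate peaks, which include background, Trl was less set apart, with 0.519 per kb against a median of 0.242 over all genes, and 14% of genes had at least as many per kb. The choice of Trl by its signal bears on each count of reproducible summits, and neighbouring genes share summits. CG42507 and Tsen34, with 5 kb around them, take in the same 7 summits and are counted among the 28. Their windows are shorter, so they had more per kb than Trl. Joined where their intervals overlap, the 7 peaks at Trl form 5 regions, and no comparison of genes by regions is given.

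Next to the other strong peaks away from start sites, the intronic peak of Trl was the third in signal and had many neighbours. The reproducible set held 1395 summits over 500 bp from any start site (47.4% of all, and 34 of the 100 strongest). The 10 strongest of them were in introns of CG11050 (2409), ush (1801), Trl (1598), Kdm2 (1139), Lk6 (1020) and Tlk (1007), in an intron shared by HmgD and HmgZ (1161), in an exon of lncRNA:Vinr (1413) and in intergenic DNA on 2R (1101) and X (1057). The gene ush encodes a Friend of GATA cofactor, Kdm2 a JmjC-domain protein, Lk6 and Tlk protein kinases, and HmgD and HmgZ HMG-box proteins. Within 5 kb of its summit the Trl peak had 6 other reproducible summits, as did lncRNA:Vinr, against 5 at ush, 4 at Kdm2 and 0 at CG11050. The median over the 1395 was 1, and 17 of them (1.22%) had 6 or more. These are counts of summits, and peaks with overlapping intervals were not joined.

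What stood around these peaks differed in height. The Trl peak was 4.98-fold the next strongest reproducible peak within 5 kb. This ratio was 5.56 at Kdm2 and 3.36 at ush, and over the 9 peaks with such a neighbour it ran from 1.12 at lncRNA:Vinr to 8.35 at the intergenic peak on 2R. Replicate ranks of the Trl peak were 3 in replicate 2 and 5 in replicate 3. Most of the others were about as close, with 2 in both at ush and 16 in both at Lk6, and the Kdm2 peak was the widest apart, at 33 in replicate 2 and 4 in replicate 3.

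The Trl locus held more GAGAG per kb than its chromosome arm, overlapping matches counted, while most of its summits lay at distances from GAGAG usual for the whole set. None of the 7 reproducible summits had GAGAG on either strand within 100 bp (windows of 201 bp), against 23.2% of all reproducible summits, 21.4% of the other pooled summits and 25% of protein-coding start sites. With a share near 23.2%, an absence from 7 windows, some of which overlap, is not a result about Trl. The nearest match to the strongest summit was 188 bp away. For peaks 1, 2 and 3 the distances were 340, 140 and 205 bp, and for peaks 5, 6 and 7 they were 277, 161 and 1576 bp. Over all reproducible summits the median distance was 222.5 bp, with quartiles of 107 and 439 bp, so that all but 1 of the Trl distances lay inside the quartiles.

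The window around Trl held 60 GAGAG matches, overlapping ones counted, 50 of them in the gene body. That is 2.60 per kb, against 1.56 per kb over arm 3L. The 60 matches fall in 45 runs, and no count of runs is given for the arm. The longest run, 19 bp from 14757379 to 14757397 with 8 overlapping matches, is the GA repeat printed above. It lay 43 to 61 bp upstream of the Trl-RJ start, inside the interval of peak 3 and 212 bp from its summit, in an intron of the transcripts that start further upstream. Matches within an interval but away from its summit are within the fragment lengths used, and nothing about the binding of GAGA factor follows from them.

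Of the other motifs searched, AGATAA was found at 3 of the 7 summits. Peak 1 held it at 2 places, one of them beginning 7 bp from the summit, and peaks 2 and 7 held 1 each, 50 and 55 bp from it. The share over all reproducible summits was 16.5%, against 13.4% of other pooled summits and 10.6% of start sites. Peaks 1 and 2 overlap in interval, and 7 windows allow no statement on Trl. TTCNNNGAA, the form read by STAT factors, was found at peak 6 only, and CATATG at peak 7 only. GAGAGAG, the STAT form with 1 more base in its middle, TATCGATA and CAGGTAG were found at no Trl summit, and none of the 8 motifs was found at the strongest peak.

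In the bases next to it, the strongest summit lay in AT-rich DNA. The 300 bp printed above, which reach further to the side of the nearest GAGAG, were 35.7% G or C. Within 100 bp of the summit 24.9% of bases were G or C. Over all reproducible summits the median was 33.3% (quartiles 28.9% and 38.3%), and 10% were at or below 24.9%. Of those over 500 bp from starts 7.89% were that low, of the other pooled summits 2.89% and of the start sites 0.654%. The other Trl summits spread widely, with 35.3% at peak 1, 40.8% at peak 2, 46.3% at peak 3, 34.3% at peak 5, 49.3% at peak 6 and 39.3% at peak 7. Of the 10 strong peaks away from start sites, Kdm2 was the lowest with 21.9% and ush the highest with 39.8%, and 3 of the 10 held GAGAG. Low G and C content goes with signal over the whole set, with a median of 31.6% among the 100 strongest and 34.8% beyond rank 2000. GAGAG was found at 20% and 23.5% of these, and at 22.9% to 24% in the ranks between, with no steady change. The part of base composition in the signal was not tested.

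**Figure D4:**
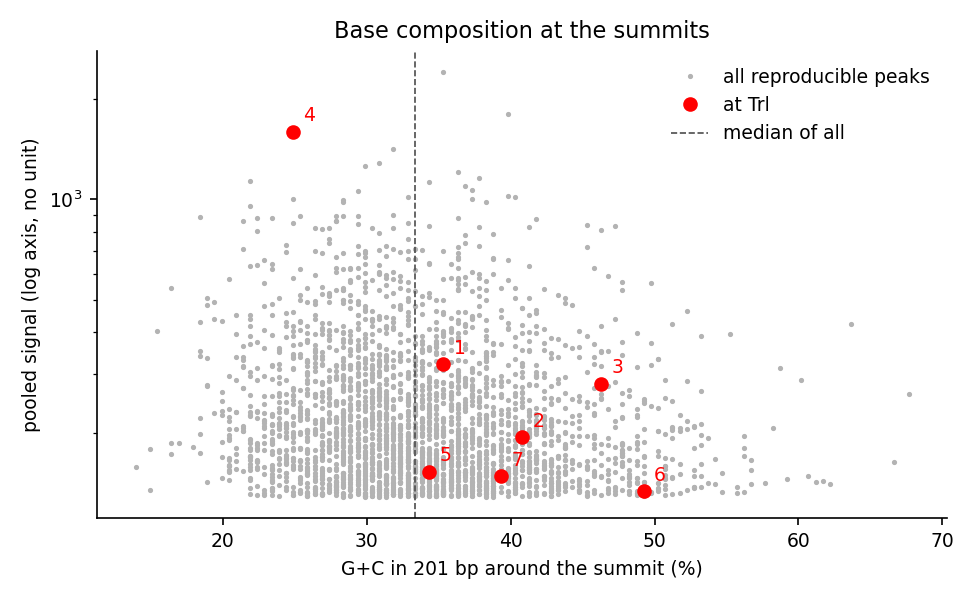
Pooled signal on a log axis against the percentage of G and C in 201 bp around the summit, for all 2942 reproducible peaks (grey) and the 7 at Trl (red), with the median of all, 33.3%, as a dashed line. Peak 4 combines a signal of 1598 with 24.9%, and the other Trl peaks lie to the right of the median.

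Genes whose products work with GAGA factor were looked at in the same way, by lists that were not independent of earlier results of these data. A peak at a start site, within 500 bp, was found at 12.1% of all protein-coding genes, and a peak in the gene body at 7.66%, and the lists are short. Of 7 genes for proteins that bind GA repeats or partner with GAGA factor, 2 had a start-site peak, Clamp (142), a zinc-finger protein gene, and Dsp1 (130), an HMG-box protein gene. Of the 7, 3 had a peak in the body. One in the body only was found at psq (322, the strongest of 4), whose protein binds GA repeats, and at mod(mdg4) (247), an insulator protein gene. The other members, lolal, corto and z, had neither.

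Of 13 genes for chromatin remodelling, FACT and pausing factors linked to GAGA factor, 2 had a start-site peak, Nelf-E (254) and TH1 (247). The share over all protein-coding genes was 12.1%, so nothing about the list is read from this count. Both encode subunits of the negative elongation factor NELF, as do Nelf-A and NELF-B of the same list, which had no start-site peak. None of the 13 had a peak in the gene body. Of 17 genes for BTB-domain proteins, the class of GAGA factor itself, 4 had a start-site peak, namely Cp190 (642), lola (478), gcl (247) and ttk (133). Peaks in the body were found at 8 of the 17, a larger share than the 7.66% of all genes, among them psq, ken (308) and rib (263), which had none at a start. Some of these genes are long, and the part of gene length in this count was not tested. Of 14 genes with GAGA elements described at their promoters, 3 had a start-site peak, Hsp27 (350), Act5C (261) and Hsp26 (212). The homeotic and segmentation genes of that list, alphaTub84B and the copies of Hsp70 had none, and reads from near-identical Hsp70 copies may not be placed, so their values are uncertain. Over all 1689 genes with a start-site peak the median signal was 219.

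The genes most like Trl in having both kinds of peak were named by the log2 distance over 4 values, the intronic and the start-site signal in each replicate. An intronic and a start-site peak were found at 181 genes, of which 148 had both matched in both replicates. Trl had the highest intronic signal of the 148 and the 66th start-site signal, 281 against a median of 263. Trl was chosen for such a pair with a very strong intronic peak, so its first place is no result. CG11050 and ush, whose intronic peaks were stronger, were not among the 148. The nearest were wde (distance 1.88, pooled 664 in the intron and 220 at the start), CHES-1-like (1.93, 696 and 465), bmm (2.09, 620 and 387), for (2.19, 566 and 389) and CG1677 (2.20, 603 and 181). The product of wde is a cofactor of an H3K9 methyltransferase, that of CHES-1-like a forkhead factor, that of bmm a lipase and that of for a protein kinase. With a median of 4.16 over all, even these differ from Trl. Its intronic signal was more than that of each in both replicates, which goes with the choice of Trl by that signal.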

How the data were processed

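Su(var)2-10-GFP was profiled by ChIP-seq in whole embryos, in 2 replicates of 1 group. Per the labels, these are biological replicates. The authors deposited, on dm6, a list of peaks and background per replicate, called against a control, such a list from the pooled alignments, and an IDR-thresholded list, per the submitters' file notes. Signal is a score of the authors with no stated unit. The deposited −log10 q gave q-values. The summit is the interval start plus the deposited offset, written 1-based. The depth per sample is unknown. The aligner and peak caller, and the version and threshold of IDR, were not given in the sources used here. Lists on dm3 were not used.

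Transcripts were those of Ensembl 115 (BDGP6.54). Bases were read from the RefSeq Release 6 assembly, whose arm lengths were checked against the highest peak ends. Summits within 500 bp of a start were start-site peaks, and within 100 bp matched. Ranks are by signal. Motifs were exact matches on both strands in 201 bp. No statistical test was run, since there is 1 group and Trl was chosen by its signal. Python 3.11.15, numpy 2.4.6, pandas 2.3.3 and matplotlib 3.10.9 were used. Placing in transcripts, distances, motif matches and the label for changed counts were tested on made-up input, and the other steps were not. Alternatives changed the window, threshold, rank, distances, annotation and list, 1 at a time.

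The gene, the lists and the motifs were chosen with earlier results of these data known. Genes were named by a rule: Trl, genes overlapping its window, genes at the 10 strongest peaks over 500 bp from starts, up to 4 list members with a start-site peak and up to 3 with one only in the body, and the 5 most like Trl. List members with neither peak are also named where they are few, or where they share a complex with members that have one. Symbols that Ensembl spells differently were matched through RefSeq synonyms.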

Additional observations from a re-analysis of the deposited data

How the results depend on the processing

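Of 42 alternative settings over 11 results, 21 gave the same value, 7 changed it by no more than 1.5 times for a count or 1 SD between replicates for another value, and 14 moved it further. Taking only the 1471 reproducible peaks of highest signal left 3 at Trl, not 7. The rank of the intronic peak was 3 to 5 from either replicate alone, and 1254 by −log10 q when ties count. Ranking by −log10 p was not run, since that column holds no values. Within 50 bp, 3 of the Trl summits were matched in both replicates, and within 200 bp, or by 50% overlap of intervals, all 7 were. Within 250 bp of a start there was 1 (peak 3), and within 250 bp of GAGAG there were 4 summits, against 54.9% of all. Of the gene lists, that of GA-repeat binding and partner proteins had 1 start-site peak at 250 bp and 1 to 4 from single replicates. The BTB-domain list had 2 at 250 bp, 8 in the gene body and 4 to 7 from single replicates. No share over all protein-coding genes is given at 250 bp or for single replicates, so nothing about the lists is read from those counts. In the gene body the cofactor list had 0 and the genes with GAGA elements 1. Signal without reads or depth limits all of these to ranks within a list. No paired analysis was possible because there is 1 group.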
